A study of Mus musculus with 6 samples.

Results

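The mRNAs of the nuclear-encoded subunits of the mitochondrial respiratory chain were compared, complex by complex, between ATM KO and vector control 4T1 cells. 4T1 is a cell line from a mammary tumour of a BALB/c mouse, grown here in culture. The genes were chosen by symbol from the genes listed in all 6 libraries: Nduf for complex I, Sdh for complex II, Uqcr for complex III, Cox4 to Cox8 for complex IV and Atp5 for complex V. This gave 75 of 13405 genes, with 36 in complex I, 4 in complex II, 8 in complex III, 11 in complex IV and 16 in complex V. All 75 are flagged as coding. The symbols do not match the complexes perfectly, since Atp5s and Atp5sl encode no subunit of ATP synthase and Ndufa4 is now known as a subunit of complex IV.

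The series holds 3 RNA-seq libraries of ATM KO cells, in which the gene of the kinase ATM was knocked out, and 3 of vector control cells. The labels do not say how the knockout was made, whether the ATM KO cells are 1 clone, or whether replicates are separate cultures. The p-values therefore reflect how far replicate libraries differed, and that may be technical. In bulk samples of this kind, fewer cells of a type and less RNA per cell cannot be told apart.

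The respiratory chain sits in the inner mitochondrial membrane. Complexes I and II pass electrons from NADH and succinate to ubiquinone, complex III passes them on to cytochrome c, and complex IV hands them to oxygen. Complexes I, III and IV pump protons as they do so, and complex V, the ATP synthase, lets the protons back through to make ATP. All subunits of complex II and most of those of the other complexes are encoded in the nucleus, while a few core subunits of complexes I, III, IV and V are encoded in mitochondrial DNA. The 2 genomes therefore have to supply subunits for the same assemblies. ATM is best known for its role in the response to DNA breaks.

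Between 22494919 and 32341508 reads per ATM KO library and between 27264975 and 30042957 per vector control library were assigned to the listed genes. The values are normalised read counts, which are read counts divided by 1 factor per library. Of the 75 genes, 74 had a mean of at least 10 over the 6 libraries and entered the test, and Atp5g2 did not. The Atm mRNA stood at 1959, 2219.8 and 1591 in ATM KO 1 to 3, against 1978, 1613 and 1519 in vector controls 1 to 3 (log2 0.17, SE 0.19; adjusted p = 0.999, limma), so it does not check the labels. Of the markers of mammary epithelium, 5 of 5 (Epcam, Krt8, Krt18, Krt14 and Cdh1) were detected in every library, and their summed level ran from 64661 to 101289 in ATM KO, against 54015 to 82732 in vector control libraries. Krt14, a basal keratin, stood at 2223, 1369.9 and 2311 in ATM KO 1 to 3, against 149.9, 684 and 654 in vector controls 1 to 3, the ATM KO libraries all being the higher ones. The log2 difference was 2.23 (SE 0.62; adjusted p = 0.999, limma, and adjusted p = 0.0641, DESeq2). Epcam stood at 11991, 8142 and 20502 in ATM KO 1 to 3, against 6116, 17513 and 17180.4 in vector controls 1 to 3, with vector control 1 lowest and ATM KO 3 highest. Their part in the results was not tested. Of the markers of other cells, 1 of 5 for leukocytes (Cd68), 1 of 3 for endothelium (Cdh5) and 1 of 3 for fibroblasts (Pdgfra) were among the listed genes. Cd68 stood at 806, 264 and 227 in ATM KO 1 to 3, against 301, 1001 and 1080.1 in vector controls 1 to 3. Pdgfra stood at 471, 323 and 712 in ATM KO 1 to 3, against 129, 474 and 469 in vector controls 1 to 3. Cdh5, at 6.84, 3.18 and 0.000 in ATM KO 1 to 3, against 11.7, 3.87 and 2.10 in vector controls 1 to 3, was near 0 in every library.

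No respiratory chain gene passed the test, and the differences between the groups were small. By limma on log2(value + 1), with p-values adjusted by Benjamini-Hochberg over the 12149 tested genes, 0 of the 74 had an adjusted p under 0.05, beside 0 of all tested genes (0.00%). By edgeR the counts were again 0 and 0 (0.00%), and by DESeq2 0 of the 74 were called beside 84 of all tested genes (0.691%). At an unadjusted p under 0.05, limma gave Ndufv1 as lower, or 1 of 74 (1.35%), beside 169 of all tested genes (1.39%). It gave Ndufa1 as higher, again 1 of 74 (1.35%), beside 336 of all tested genes (2.77%). By edgeR 2 of the 74 had an unadjusted p under 0.05, beside 522 of the 12149 tested genes. By DESeq2 it was 4 of the 74, beside 717 of the 12149.

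The log2 differences, ATM KO minus vector control, ran from -0.48 for Uqcr10 to 0.77 for Cox7c. They were below 0 for 59 of the 74 genes (79.7%), where 51.4% of all tested genes lay below 0, and their median was -0.12, beside -0.01 over all tested genes. The medians of the complexes lay close together. They were -0.12 for complex I, with 28 of 36 genes below 0, and -0.11 for complex II, with 4 of 4. In complex III the median was -0.23, with 6 of 8 genes below 0. In complex IV it was -0.12, with 7 of 11, and in complex V -0.10, with 14 of 15. Without Atp5s and Atp5sl, an alternative chosen after seeing the data, the median of complex V was -0.16.

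For 10 of the 74 genes (13.5%) all ATM KO libraries were below all vector control libraries, which was so for 5.48% of all tested genes. For 2 of the 74 (2.70%) all ATM KO libraries were above all vector control libraries, beside 5.70% of all tested genes. The 10 were Ndufv1, Ndufs8, Ndufs7, Ndufb3 and Ndufb5 of complex I, Uqcrc2 of complex III, Cox4i1 of complex IV, and Atp5b, Atp5a1 and Atp5c1 of complex V. The 2 were Ndufa1 and Ndufb11 of complex I. In the other 62 tested genes the groups overlapped. These separations were read from values divided by the authors' factor for each library. The shares over all tested genes were not counted on another scale, on which narrow separations may not hold. With values taken as a share of the library total, the groups overlapped for Ndufb5, Cox4i1 and Atp5c1. In each of these ATM KO 2 then lay above a control.

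**Figure D1:**
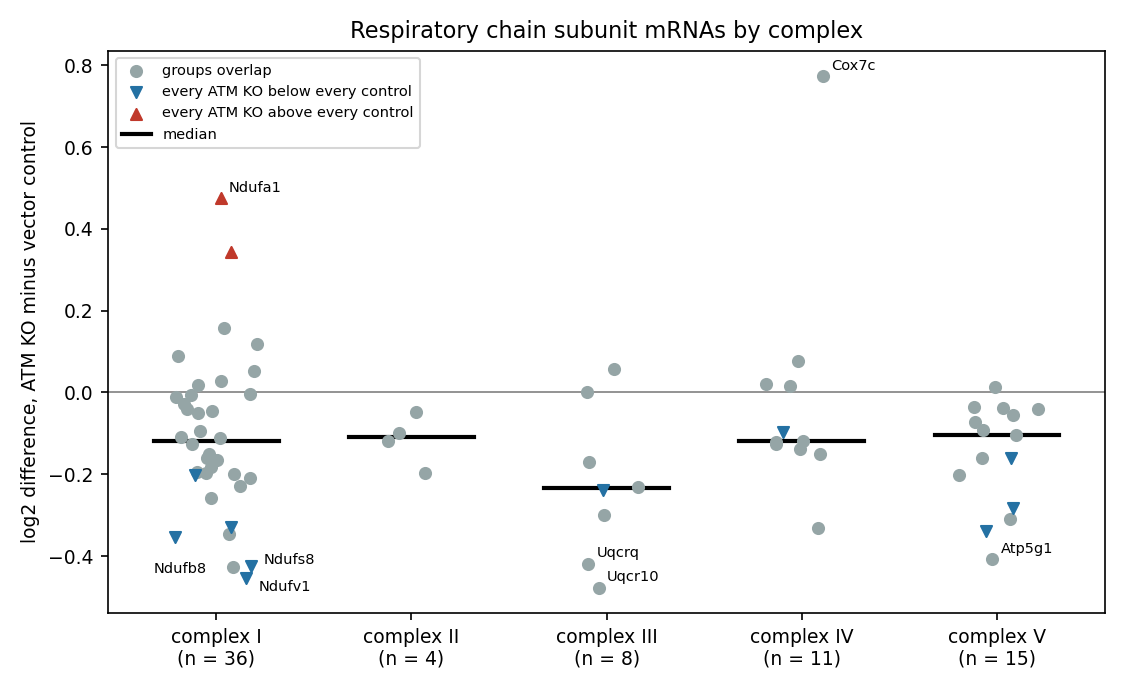
The log2 difference, ATM KO minus vector control, of each of the 74 tested respiratory chain genes (points), grouped by complex, with the median of each complex as a bar. Blue triangles mark the 10 genes with every ATM KO library below every vector control, red triangles the 2 with every ATM KO library above; the 5 medians lie between -0.23 and -0.10.

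Summed over the 75 genes, the normalised read counts came to 207719.6, 228229 and 173479 in ATM KO 1 to 3, against 233865, 231359 and 234099.8 in vector controls 1 to 3. The mean sum was 203142 ± 27661 in ATM KO and 233108 ± 1519 in vector control cells (SD, n = 3 each). The controls were thus within a narrow band, and the ATM KO libraries lay below it at very different distances. By complex, only the sum of complex V separated the groups. It was 94139, 105590 and 76158 in ATM KO 1 to 3, against 108289, 110550 and 110781 in vector controls 1 to 3. For complexes I, II, III and IV the sums of the groups overlapped. As a share of all reads the genes took 0.751%, 0.820% and 0.603% in ATM KO 1 to 3, against 0.815%, 0.796% and 0.817% in vector controls 1 to 3. On this scale, which does not use the authors' factors, ATM KO 2 lay above all controls, so the groups overlapped.

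The lower values rested largely on ATM KO 3. The median deviation of the 74 genes from their own 6-library means was -0.01, 0.12 and -0.33 in ATM KO 1 to 3, against 0.12, 0.04 and 0.07 in vector controls 1 to 3 on the log2 scale. ATM KO 3 was the lowest of the 6 libraries for 49 of the 74 genes (66.2%), beside 25.8% of all tested genes. By complex it was the lowest for 24 of 36 genes of complex I, 3 of 4 of complex II, 5 of 8 of complex III, 5 of 11 of complex IV and 12 of 15 of complex V. Without ATM KO 3 the median log2 difference was -0.03 over the 74 genes, of which 41 were below 0, and 0.02 for complex I, -0.05 for complex II, -0.08 for complex III, -0.0049 for complex IV and -0.04 for complex V. ATM KO 2 was on the other side and was the highest library for 19 of the 74 genes. Without ATM KO 2 the median was -0.24, with 63 of the 74 genes below 0.

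**Figure D2:**
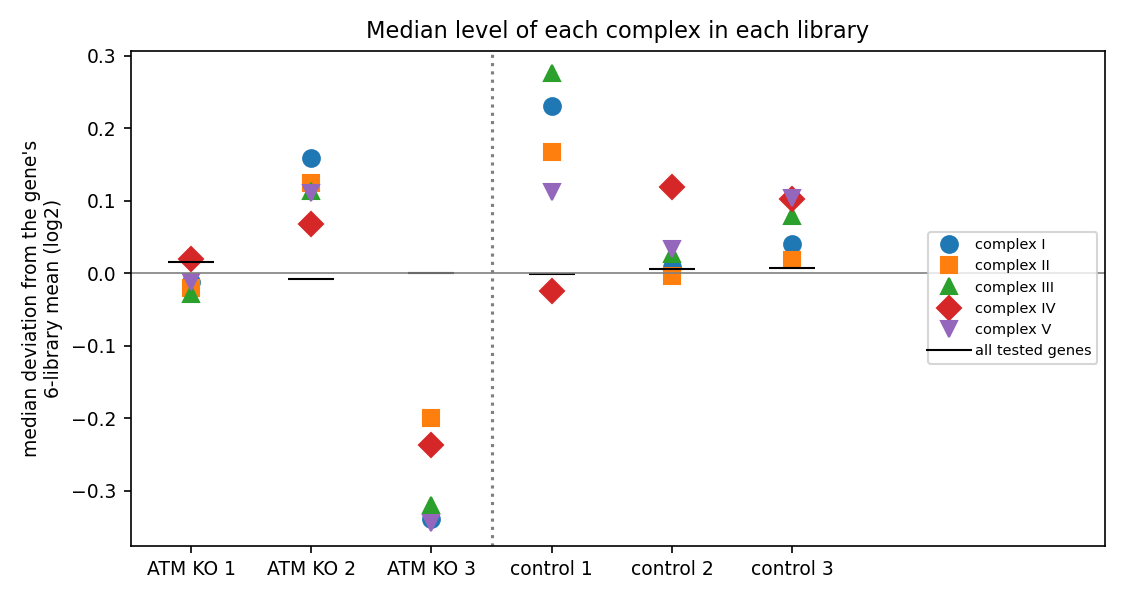
The median deviation of the tested genes of each complex from their 6-library means (log2, y axis) in each library (x axis), with the median over all tested genes as a black dash. ATM KO 3 is low for all 5 complexes, between -0.34 and -0.20, ATM KO 2 lies between 0.07 and 0.16, and vector control 1 is high for complexes I, II, III and V but not for complex IV.

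The controls were also uneven. Vector controls 2 and 3 differed from each other by at least 0.5 on the log2 scale for 1 of the 74 genes, Ndufb4, while vector control 1 differed from the mean of the other two by at least 0.5 for 17. Vector control 1 was the highest library for 27 of the 74 genes (36.5%) and the lowest for 12 (16.2%), beside 31.9% and 31.2% of all tested genes. Targets of hypoxia-inducible factor also differed between the libraries: over 12 of 12 tested genes, from Ldha and Ndrg1 to Car9 and Adm, the median deviation was -0.10, -0.98 and 0.96 in ATM KO 1 to 3, against -1.76, 0.94 and 0.94 in vector controls 1 to 3. ATM KO 3 and vector controls 2 and 3 were alike in these genes, while their medians over the respiratory chain genes were -0.33, 0.04 and 0.07. ATM KO 3 also had the fewest reads, at 22494919. The part of depth and of the hypoxia targets in the low values of ATM KO 3 was not tested.

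Complex I has 7 nuclear-encoded core subunits, which carry the flavin and the iron-sulfur clusters of the arm that reaches into the matrix. Their median log2 difference was -0.23. In 3 (42.9%) the groups did not overlap, with ATM KO lower, beside 5.48% of all tested genes. Ndufv1 holds the flavin that takes electrons from NADH. It stood at 3051, 2768 and 2118 in ATM KO 1 to 3, against 3983, 3357 and 3443 in vector controls 1 to 3, so that every ATM KO library lay below every control and ATM KO 3 lay lowest. The means were 2646 ± 478 in ATM KO and 3594 ± 339 in vector control cells (SD, n = 3 each), a log2 difference of -0.45 (SE 0.18; unadjusted p = 0.0462 and adjusted p = 0.999, limma). The gene lies on chromosome 19, 4007384 to 4012806 (GRCm38, minus strand). Ndufs8, an iron-sulfur subunit near the ubiquinone site, stood at 1193, 1151 and 852 in ATM KO 1 to 3, against 1473, 1299 and 1477 in vector controls 1 to 3 (log2 -0.42, SE 0.19). It lies on the same chromosome (chromosome 19, 3908863 to 3912774, minus strand). Ndufs7, which carries the last cluster before ubiquinone, stood at 915, 954 and 805 in ATM KO 1 to 3, against 1155, 1037 and 1166 in vector controls 1 to 3 (log2 -0.33, SE 0.16; chromosome 10, 80249121 to 80256794, plus strand).

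Of the other core subunits, Ndufs1, Ndufv2 and Ndufs3 had overlapping groups. Ndufs1, the largest subunit, stood at 3689, 4049 and 2734 in ATM KO 1 to 3, against 4581, 3745 and 3827 in vector controls 1 to 3, and Ndufv2, the partner of Ndufv1, at 2514, 2981 and 1929 in ATM KO 1 to 3, against 2935, 2601 and 2845 in vector controls 1 to 3. In both ATM KO 2 lay above at least 1 control, and ATM KO 3 was the lowest of the 6 libraries. Ndufs3 stood at 654, 867 and 639 in ATM KO 1 to 3, against 913, 713 and 725 in vector controls 1 to 3 (log2 -0.13, SE 0.21). When each library was left out in turn, the log2 difference ranged from -0.57 to -0.30 for Ndufv1, from -0.51 to -0.27 for Ndufs8 and from -0.38 to -0.26 for Ndufs7.

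The other 29 genes of complex I encode accessory subunits, which surround the core and hold it together. Of these, 21 were below 0 and 8 above, with a median of -0.05. The groups did not overlap in 2 in each direction (6.90% each). Over all tested genes it was 5.48% with ATM KO lower and 5.70% with ATM KO higher. The lower pair, Ndufb3 and Ndufb5, belongs to the membrane arm. Ndufb3 stood at 669, 642 and 555 in ATM KO 1 to 3, against 743, 815 and 824 in vector controls 1 to 3 (log2 -0.35, SE 0.17). Ndufb5 stood at 1118, 1269 and 1217 in ATM KO 1 to 3, against 1442, 1410.4 and 1293 in vector controls 1 to 3 (log2 -0.20, SE 0.15), with ATM KO 1, not ATM KO 3, as the lowest library. Ndufb8, also of the membrane arm, had a large difference, -0.43 (SE 0.23), but overlapped, at 1369, 1746 and 1001 in ATM KO 1 to 3, against 1977, 1717 and 1714 in vector controls 1 to 3. Its value in ATM KO 2 lay above those of vector controls 2 and 3. Ndufa9, which binds a nicotinamide nucleotide near the ubiquinone site, likewise overlapped at 1776, 2316 and 1694 in ATM KO 1 to 3, against 2728, 2315 and 2273 in vector controls 1 to 3 (log2 -0.35, SE 0.18).

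Ndufa1 and Ndufb11 lay on the other side of 0. Both encode small subunits of the membrane arm and both genes lie on the X chromosome. Ndufa1 (chromosome X, 37187588 to 37191163, minus strand) stood at 689.6, 778 and 589 in ATM KO 1 to 3, against 456, 517 and 497 in vector controls 1 to 3. All 3 ATM KO libraries lay above all 3 controls, ATM KO 3 being the nearest to them. The means were 685 ± 94.6 in ATM KO and 490.0 ± 30.7 in vector control cells (SD, n = 3 each), with a log2 difference of 0.48 (SE 0.19; unadjusted p = 0.0435 and adjusted p = 0.999, limma; adjusted p = 0.460, DESeq2). Ndufb11 (chromosome X, 20615326 to 20617619, minus strand) stood at 1472, 1528 and 1647 in ATM KO 1 to 3, against 1052, 1285 and 1343 in vector controls 1 to 3 (log2 0.34, SE 0.17; adjusted p = 0.999, limma). Here ATM KO 3 was the highest library. Leaving out each library in turn gave 0.38 to 0.58 for Ndufa1 and 0.24 to 0.41 for Ndufb11. The third respiratory chain gene on the X chromosome, Cox7b of complex IV, did not share this, with -0.15 (SE 0.20). Over all 364 tested genes of the X chromosome the median was -0.01. The groups did not overlap for 34 of them with ATM KO lower (9.34%, beside 5.48% of all tested genes) and for 50 with ATM KO higher (13.7%, beside 5.70%).

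Ndufv3 was the gene in which vector control 1 stood farthest from the other controls, by -1.91 on the log2 scale. It encodes a small accessory subunit beside Ndufv1 and stood at 1567, 969 and 1829 in ATM KO 1 to 3, against 625, 2357 and 2358 in vector controls 1 to 3. Vector control 1 was lowest by far and vector controls 2 and 3 were the highest, so the groups overlapped in full (log2 -0.11, SE 0.57). Ndufa11 was the reverse, at 487, 590.0 and 353 in ATM KO 1 to 3, against 794, 359.9 and 343 in vector controls 1 to 3, with vector control 1 the highest library. Ndufs6, an accessory subunit that binds zinc, stood at 619, 922 and 430.0 in ATM KO 1 to 3, against 778, 488 and 506 in vector controls 1 to 3 (log2 0.12, SE 0.34), and Ndufa5, an accessory subunit of the matrix arm, at 512, 712 and 395 in ATM KO 1 to 3, against 695, 463 and 372 in vector controls 1 to 3 (log2 0.09, SE 0.33). In these ATM KO 2 and vector control 1 were the highest libraries of their groups. Of the remaining accessory genes, Ndufa2, Ndufa6, Ndufa10, Ndufa12, Ndufb6, Ndufb9, Ndufb10, Ndufc2 and Ndufs4 had log2 differences between -0.26 and -0.11. Ndufa3, Ndufa7, Ndufa8, Ndufa13, Ndufb4, Ndufb7, Ndufc1 and Ndufs5 lay between -0.05 and 0.05. Ndufb2, with 0.16 (SE 0.25), was the highest of the accessory genes after the X-linked pair and also overlapped.

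**Figure D3:**
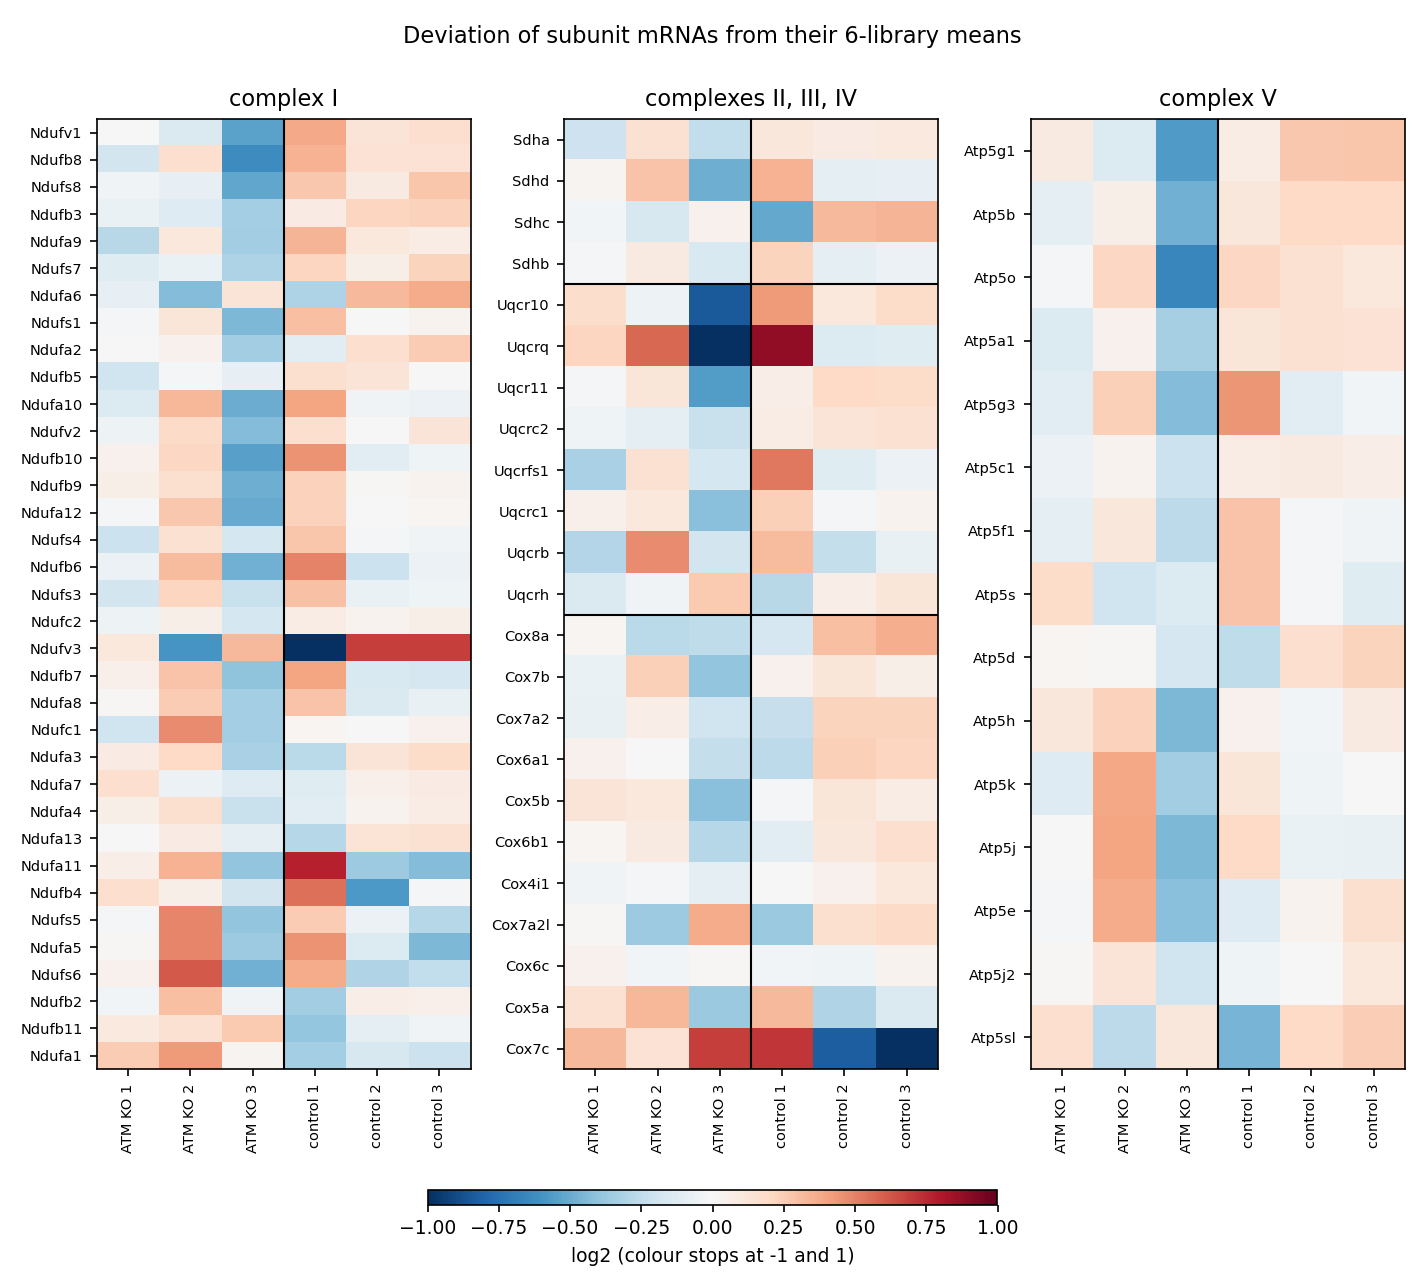
The deviation of tested genes (rows, sorted by log2 difference within a complex) from its own 6-library mean, in the 6 libraries (columns), in log2 units with the colour scale ending at -1 and 1. ATM KO 3 is blue, or low, over most rows; Ndufa1 and Ndufb11 at the foot of complex I are red in ATM KO and blue in vector control libraries; Ndufv3, Uqcrq and Cox7c show single libraries that stand far from the rest.

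In complex II the groups overlapped for all 4 genes, and all 4 differences were below 0. Sdha, the flavoprotein that oxidises succinate, stood at 6866, 8811 and 6661 in ATM KO 1 to 3, against 8565, 8390.0 and 8445 in vector controls 1 to 3. The controls agreed to within 89.4 (SD), whereas ATM KO 2 lay above them and ATM KO 1 and 3 below (log2 -0.20, SE 0.15). Sdhb, the iron-sulfur subunit, stood at 1959, 2103 and 1776 in ATM KO 1 to 3, against 2298, 1852 and 1896 in vector controls 1 to 3 (log2 -0.05, SE 0.16). Sdhc and Sdhd, which anchor the complex in the membrane, gave -0.10 (SE 0.26) and -0.12 (SE 0.24). They differed in which libraries stood apart. Sdhc stood at 2962, 2709 and 3111 in ATM KO 1 to 3, against 2118, 3793 and 3819 in vector controls 1 to 3, with vector control 1 lowest, and Sdhd at 3941, 4713 and 2760.5 in ATM KO 1 to 3, against 4932, 3626 and 3665 in vector controls 1 to 3, with vector control 1 highest.

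In complex III the core proteins and the Rieske protein were lower in the mean, by a median of -0.23. Uqcrc2, a core protein on the matrix side, stood at 4102, 3983 and 3624 in ATM KO 1 to 3, against 4457, 4640.5 and 4703 in vector controls 1 to 3 (log2 -0.24, SE 0.13; chromosome 7, 120635176 to 120659524, plus strand). It was the one gene of the complex whose groups did not overlap, and its difference ranged from -0.28 to -0.19 when each library was left out in turn. Uqcrc1, the other core protein, stood at 8776, 9131 and 6355 in ATM KO 1 to 3, against 9981, 8388 and 8676 in vector controls 1 to 3 (log2 -0.17, SE 0.18). Uqcrfs1, the Rieske iron-sulfur protein that hands electrons to cytochrome c1, stood at 2874, 3997 and 3189 in ATM KO 1 to 3, against 5179.6, 3310.3 and 3455 in vector controls 1 to 3 (log2 -0.23, SE 0.23), with vector control 1 far above the rest.

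The 5 small subunits of complex III differed more between libraries. Uqcr10 had the lowest difference of all 74 genes, -0.48 (SE 0.29), but its values, 1057, 902 and 523 in ATM KO 1 to 3, against 1259, 1007 and 1062 in vector controls 1 to 3, overlapped, since ATM KO 1 lay between vector controls 2 and 3. Uqcrq stood at 1235, 1580.0 and 397 in ATM KO 1 to 3, against 1968, 966 and 974 in vector controls 1 to 3 (log2 -0.42, SE 0.57). ATM KO 3 had less than any other library, and without it the difference was 0.19. Uqcr11 stood at 869, 953 and 596 in ATM KO 1 to 3, against 918, 1006 and 997 in vector controls 1 to 3 (log2 -0.30, SE 0.22). Uqcrh, the acidic hinge protein next to cytochrome c1, stood at 1538, 1659.6 and 2035 in ATM KO 1 to 3, against 1399, 1779 and 1850.2 in vector controls 1 to 3 (log2 0.06, SE 0.19), and here ATM KO 3 was the highest library. Uqcrb stood at 256, 435 and 276 in ATM KO 1 to 3, against 390.2, 265 and 297 in vector controls 1 to 3, which left a difference of 0.0003 (SE 0.29).

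In complex IV only Cox4i1 separated the groups on the authors' factors. It encodes the largest nuclear-encoded subunit and stood at 7681, 7814 and 7374 in ATM KO 1 to 3, against 7879, 8129 and 8463 in vector controls 1 to 3. The separation was narrow: the means were 7623 ± 226 in ATM KO and 8157 ± 293 in vector control cells (SD, n = 3 each) (log2 -0.10, SE 0.12; chromosome 8, 120668222 to 120674207, plus strand). Cox8a had the lowest difference of the complex, -0.33 (SE 0.19), at 3042, 2496 and 2522 in ATM KO 1 to 3, against 2673, 3700.2 and 3858 in vector controls 1 to 3. Vector control 1 lay among the ATM KO libraries, and vector controls 2 and 3 lay above all of them. Cox6a1 stood at 3368, 3268 and 2769 in ATM KO 1 to 3, against 2727, 3840.5 and 3781 in vector controls 1 to 3 (log2 -0.13, SE 0.19), and Cox7a2 at 1915, 2114 and 1752 in ATM KO 1 to 3, against 1718, 2348 and 2347 in vector controls 1 to 3 (log2 -0.14, SE 0.19). In both, vector control 1 lay below all ATM KO libraries and vector controls 2 and 3 above them. Cox6a1 and Cox7a2 are the isoforms used in most tissues. None of the muscle or tissue-restricted isoforms Cox4i2, Cox6a2, Cox6b2, Cox7a1, Cox8b and Ndufa4l2 was among the listed genes under these symbols.

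Cox6b1, which faces cytochrome c, and Cox5b, a zinc-binding subunit, gave -0.12 (SE 0.17) and -0.12 (SE 0.20), with ATM KO 3 lowest for both. Cox7b stood at 1613, 1992 and 1287 in ATM KO 1 to 3, against 1741, 1839 and 1764 in vector controls 1 to 3, with the ATM KO libraries on both sides of the controls. Cox6c was the steadiest of all, at 1208, 1147 and 1184 in ATM KO 1 to 3, against 1151, 1137 and 1202 in vector controls 1 to 3 (log2 0.02, SE 0.14). Cox5a stood at 2517, 2838 and 1747 in ATM KO 1 to 3, against 2834, 1837 and 2046 in vector controls 1 to 3 (log2 0.08, SE 0.26). Cox7a2l, known for joining complexes III and IV into supercomplexes, stood at 1454, 1123 and 1862 in ATM KO 1 to 3, against 1113, 1611 and 1642 in vector controls 1 to 3 (log2 0.02, SE 0.26). ATM KO 3 was highest there and ATM KO 2 and vector control 1 were lowest. Ndufa4, counted by its symbol in complex I, stood at 4036, 4329 and 3318 in ATM KO 1 to 3, against 3609, 3979.8 and 4088 in vector controls 1 to 3 (-0.006, SE 0.16). Counting it in complex IV, an alternative chosen after seeing the data, moved the median of that complex to -0.11. Cox7c, with the highest difference of all 74 genes, 0.77 (SE 0.58), rested on few reads, at 20.5, 18.04 and 26.9 in ATM KO 1 to 3, against 27.2, 8.71 and 7.35 in vector controls 1 to 3.

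The F1 head of complex V, which makes the ATP, is built of the products of Atp5a1, Atp5b, Atp5c1, Atp5d and Atp5e. All 5 were below 0, with a median of -0.16. In 3 (60%) the groups did not overlap, with ATM KO lower, beside 5.48% of all tested genes. Among these, Atp5c1 overlapped when taken as a share of the library total. Atp5b encodes the catalytic beta subunit and is the most abundant of the 75 mRNAs. It stood at 44525, 49238 and 33912 in ATM KO 1 to 3, against 51107, 54299 and 54206 in vector controls 1 to 3. The means were 42558 ± 7850.0 in ATM KO and 53204 ± 1817 in vector control cells (SD, n = 3 each), a log2 difference of -0.34 (SE 0.17; adjusted p = 0.999, limma), and the gene lies on chromosome 10, 128083273 to 128090391 (plus strand). Atp5a1, the alpha subunit that alternates with beta around the head, stood at 22964, 26025 and 20023 in ATM KO 1 to 3, against 27386, 28092 and 27947 in vector controls 1 to 3 (log2 -0.28, SE 0.14). In both the controls lay close together and the ATM KO libraries were spread below them, ATM KO 2 nearest and ATM KO 3 farthest. Without ATM KO 3 the difference was -0.18 for Atp5b and -0.19 for Atp5a1, and when each library was left out in turn the lowest values were -0.45 and -0.37.

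Atp5c1, the gamma subunit that forms the turning shaft, stood at 5145, 5499.7 and 4609.8 in ATM KO 1 to 3, against 5657, 5722 and 5628 in vector controls 1 to 3 (log2 -0.16, SE 0.13; chromosome 2, 10056016 to 10080510, minus strand). Again the controls varied little (SD 47.9) and every ATM KO library was lower on the authors' factors. Atp5d and Atp5e, which encode the delta and epsilon subunits of the stalk, overlapped, with -0.09 (SE 0.17) and -0.04 (SE 0.23). Summed over the 5 genes of the head, the normalised read counts were 78423, 86974 and 63441 in ATM KO 1 to 3, against 89073, 94413 and 94398 in vector controls 1 to 3. Atp5b and Atp5a1 make up most of that sum, so it follows them.

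**Figure D4:**
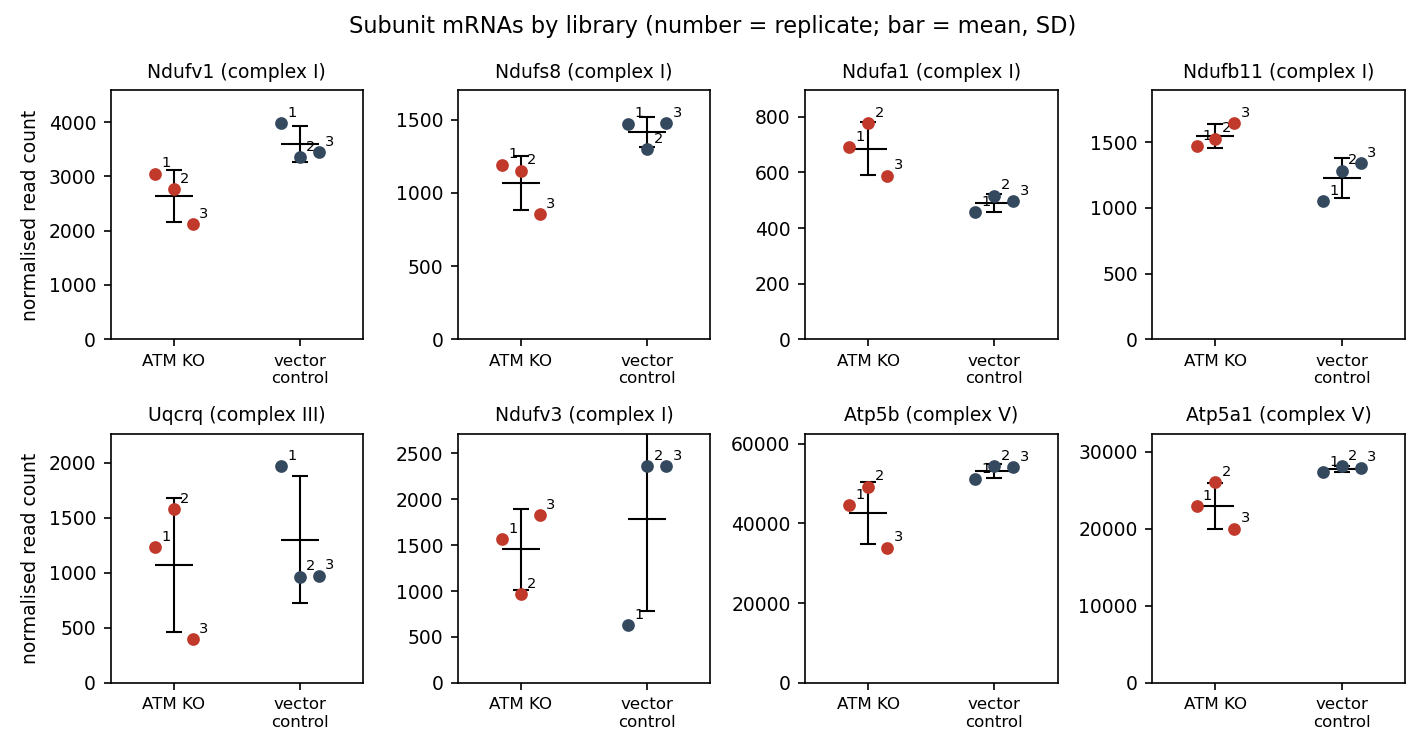
Normalised read counts (y axis, from 0) of 8 respiratory chain genes in ATM KO (left, red) and vector control (right, dark) libraries; each point is a library with its replicate number, and the bars are the mean and SD of 3. Ndufv1, Ndufs8, Atp5b and Atp5a1 have every ATM KO library below every control, Ndufa1 and Ndufb11 every ATM KO library above, and in Uqcrq and Ndufv3 a single library (ATM KO 3 at 397, vector control 1 at 625) lies far from the rest.

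The peripheral stalk, which keeps the head from turning, is encoded by Atp5f1, Atp5h, Atp5j and Atp5o. All 4 were below 0 with overlapping groups. Atp5o had the largest difference, at 1984, 2311 and 1275 in ATM KO 1 to 3, against 2315, 2229.8 and 2156 in vector controls 1 to 3 (log2 -0.31, SE 0.24). ATM KO 2 lay within the controls and ATM KO 3 far below, and without ATM KO 3 the difference was -0.06. Atp5f1, Atp5h and Atp5j gave -0.16, -0.07 and -0.04. Atp5j2 and Atp5k, small subunits of the membrane part, gave -0.04 and -0.05. Atp5s and Atp5sl, which encode no subunit, gave -0.10 and 0.01.

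The c subunit, the ring that turns as protons pass, is encoded by Atp5g1, Atp5g2 and Atp5g3, whose mature proteins are the same. Nearly all of the reads came from Atp5g3, at 3421, 4345 and 2721 in ATM KO 1 to 3, against 4987, 3422 and 3606 in vector controls 1 to 3 (log2 -0.20, SE 0.24). Atp5g1 stood at 57.3, 48.8 and 35.8 in ATM KO 1 to 3, against 56.4, 64.8 and 65.1 in vector controls 1 to 3 (log2 -0.41, SE 0.32), and Atp5g2 at 0.856, 2.12 and 3.84 in ATM KO 1 to 3, against 6.81, 3.87 and 1.05 in vector controls 1 to 3, below the limit for testing. The coding sequences of Atp5g1 and Atp5g2 are shared with other annotated genes, so their low values are uncertain, as set out with the levels that follow.

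Levels were compared between genes per kb of annotated exon (GENCODE M21). The 75 genes spanned from 1.36 ± 0.894 in ATM KO and 2.33 ± 1.72 in vector control cells for Atp5g2 to 10044 ± 1853 in ATM KO and 12557 ± 429 in vector control cells for Atp5b, in normalised read counts per kb. Below Atp5b came Atp5a1 at 7338 ± 957 in ATM KO and 8870.2 ± 119 in vector control cells. Cox4i1, Cox8a and Cox6a1 of complex IV followed, with Cox4i1 at 4918 ± 146 in ATM KO and 5263 ± 189 in vector control cells, Cox8a at 4341 ± 498 in ATM KO and 5509.5 ± 1039.5 in vector control cells and Cox6a1 at 4466 ± 457 in ATM KO and 4914 ± 892 in vector control cells. Within those 3 the order changes between the groups and the SDs overlap. By complex, the median level per kb over both groups was 653 for complex I, 1439 for complex II, 1523 for complex III, 1405 for complex IV and 952 for complex V. Subunits that stand in the assembled complex in equal numbers thus had unlike levels per kb, as in complex II. Sdhd had 3091 ± 799 in ATM KO and 3309.7 ± 604 in vector control cells. Sdhb had 869 ± 73.1 in ATM KO and 900.2 ± 109.9 in vector control cells. Before division by length, the means for Sdhd were 3805 in ATM KO and 4074 in vector control cells. For Sdhb they were 1946 and 2015. Part of the distance per kb thus comes from the exon lengths, which may differ from those of the mRNAs present.

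The lowest levels belonged to genes whose sequence is shared. Runs of 50 coding bases were looked up in the transcripts of all other genes in GENCODE M21, pseudogenes included. In 40 of the 75 genes at least 1 run was found elsewhere, in 29 at least 10% of the runs were, and in 32 another gene with such a run was a pseudogene. The 4 genes with the lowest level per kb were Atp5g2, Atp5g1, Cox7c and Ndufb4, and 100%, 99.7%, 100% and 100% of their coding runs were shared. Ndufb2, the next lowest, shared 50.6%. Reads that match several genes equally well cannot be assigned to one of them, and how the authors treated such reads is not stated, so these 5 levels, and their differences, are uncertain. Sharing did not go with a low level throughout, since Ndufb9 shared 31.2% and stood at 4044 ± 911 in ATM KO and 4513 ± 389.9 in vector control cells. Of the 12 genes whose groups did not overlap, Ndufv1, Ndufs7, Ndufs8, Ndufa1, Cox4i1 and Atp5a1 shared no run, and Ndufb3, Ndufb5 and Ndufb11 shared 18.05%, 14.4% and 20.1%. Uqcrc2, Atp5b and Atp5c1 shared 2.89%, 1.04% and 7.90%.

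**Figure D5:**
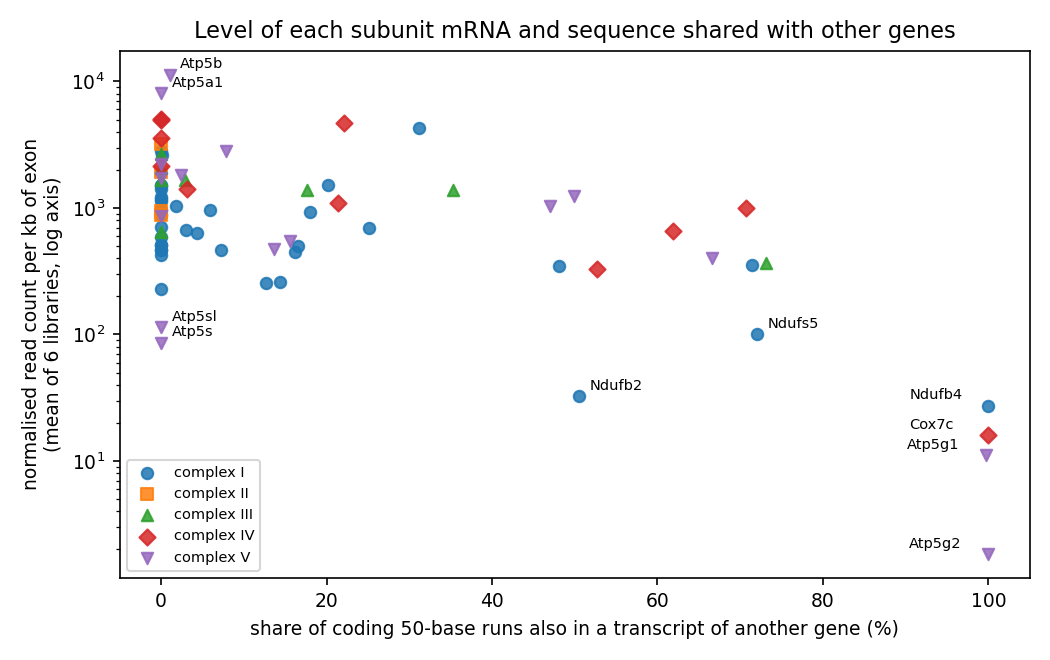
The level of each of the 75 genes (normalised read count per kb of exon, mean of 6 libraries, log axis) against the share of its 50-base coding runs that also occur in a transcript of another gene (x axis, percent), with 1 marker shape per complex. Atp5g2, Atp5g1, Cox7c and Ndufb4 stand alone at the right with the lowest levels, while Atp5b and Atp5a1, the highest, share 1.04% and 0%.

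The promoters of respiratory chain genes are known for sites of NRF1, of the ETS factor GABP (NRF2) and of YY1. Promoter windows of 250 bases before to 50 bases after the start, from RefSeq (GRCm38.p6), were matched by symbol or gene ID for 64 of the 75 genes. Those not matched include Ndufa2, Ndufb9, Ndufs1, Sdhc, Uqcrb, Uqcrc2, Uqcrq, Cox4i1, Cox6c and Atp5a1. On both strands, the full NRF1 motif, in which GCGCATG and CATGCGC overlap by 4 letters, was found in 5 of the 64 (7.81%), beside 1.07% of all 27025 windows and 2.44% of the 9185 windows of listed genes. The 5 were Ndufa11, Uqcrc1, Cox6a1, Atp5g2 and Atp5k. Either part alone, GCGCATG or CATGCGC, both of which the full motif contains, was found in 12 (18.8%), beside 4.41% of all windows and 8.19% of those of listed genes. The YY1 core AAGATGGC was found in 11 (17.2%), beside 3.19% and 5.38%, and the ETS core CCGGAAG in 15 (23.4%), beside 9.93% and 20.5%. By complex, the YY1 core was in 7 of 32 windows of complex I and 4 of 15 of complex V, and in 0 of 3, 0 of 5 and 0 of 9 of complexes II, III and IV.

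Parts of 5 of these windows are printed to show how differently they read: those of Ndufv1 and Atp5b, whose groups did not overlap and whose windows hold none of the motifs, those of Ndufa11 and Cox6a1, which hold the full NRF1 motif, and that of Uqcr11 with the ETS core. Capitals mark the motif. The window of Cox6a1 also holds the ETS core and that of Uqcr11 a part of the NRF1 motif, both outside the printed stretch. Each stretch is given 5′ to 3′ on the strand of its gene and lies outside annotated exons. On GRCm38.p6 they are chr19:4012807-4013005 (minus strand) for Ndufv1, chr10:128083057-128083272 (plus strand) for Atp5b, chr17:56717686-56717761 (plus strand) for Ndufa11, chr5:115348982-115349129 (minus strand) for Cox6a1 and chr10:80406831-80407071 (minus strand) for Uqcr11.
Ndufv1: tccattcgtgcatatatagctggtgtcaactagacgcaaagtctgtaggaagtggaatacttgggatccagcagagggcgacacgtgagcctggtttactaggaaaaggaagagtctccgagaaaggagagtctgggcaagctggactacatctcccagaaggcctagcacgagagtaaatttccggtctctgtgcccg
Atp5b: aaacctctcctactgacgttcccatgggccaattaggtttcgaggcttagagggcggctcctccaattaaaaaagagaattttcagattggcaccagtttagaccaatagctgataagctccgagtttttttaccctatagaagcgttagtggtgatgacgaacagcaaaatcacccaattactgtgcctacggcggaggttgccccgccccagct
Ndufa11: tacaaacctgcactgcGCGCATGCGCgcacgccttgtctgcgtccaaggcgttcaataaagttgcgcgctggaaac
Cox6a1: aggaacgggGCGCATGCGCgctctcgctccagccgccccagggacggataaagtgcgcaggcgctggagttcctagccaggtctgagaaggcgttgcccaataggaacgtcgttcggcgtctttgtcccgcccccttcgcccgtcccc
Uqcr11: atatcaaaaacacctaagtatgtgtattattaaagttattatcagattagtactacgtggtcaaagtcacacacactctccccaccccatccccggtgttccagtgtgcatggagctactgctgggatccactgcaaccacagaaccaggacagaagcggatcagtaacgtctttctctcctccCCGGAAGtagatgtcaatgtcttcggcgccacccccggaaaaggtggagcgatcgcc
Of the genes with the full NRF1 motif, Atp5g2 was below the limit for testing. The others had log2 differences of 0.02 for Ndufa11 (-0.07 by edgeR), -0.17 for Uqcrc1, -0.13 for Cox6a1 and -0.05 for Atp5k. In all 4 the groups overlapped.

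Many of these genes have a neighbour on the other strand that starts close to their own start. In 27 of the 75 such a gene starts within 1000 bases on either side (GENCODE M21), and in 25 of these pairs both genes were tested. Some of these neighbours, such as Rbm10 beside Ndufb11, start inside the respiratory chain gene, so that the pair overlaps. The log2 differences had the same sign in 15 of the 25, and 14 of the 25 neighbours were below 0. How many pairs would share a sign by chance was not tested. Rnf113a1, beside Ndufa1, stood at 132, 186 and 139 in ATM KO 1 to 3, against 163, 107 and 123 in vector controls 1 to 3 (log2 0.22), and Rbm10, beside Ndufb11, at 1158, 1645 and 1223 in ATM KO, against 1169, 1082 and 1086 in vector control libraries (log2 0.25). Both differences were above 0, as those of their X-linked partners were, but the groups overlapped. The pairs did not always follow each other between libraries. Wdr4, beside Ndufv3, stood at 932, 1362 and 589 in ATM KO 1 to 3, against 1900.4, 486 and 455 in vector controls 1 to 3, so that it was highest in vector control 1, where Ndufv3 was lowest. These neighbours were picked for their values. The strand setting of the counting is not known, so reads of overlapping genes on opposite strands cannot be told apart.

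Genes that serve the complexes without being subunits were read from the same fit. Of the assembly factors, which build the complexes and insert their cofactors, 42 of 50 were tested. Of the 42, 30 were below 0 (71.4%, beside 51.4% of all tested genes) and 12 above. Their median was -0.12, and 0 passed limma, edgeR or DESeq2. In 2 of them (4.76%) every ATM KO library lay below every control, beside 5.48% of all tested genes: Cox15, of the heme a pathway, at 2108, 2098 and 1903 in ATM KO 1 to 3, against 2888, 2438 and 2365 in vector controls 1 to 3, and Bcs1l, which inserts the Rieske protein, at 498, 506 and 359.6 in ATM KO 1 to 3, against 519.6, 575 and 544 in vector controls 1 to 3. Coa5, the most abundant, stood at 3601, 3843 and 3087 in ATM KO 1 to 3, against 5125, 2930.2 and 2892 in vector controls 1 to 3, with vector control 1 highest. The lean of the assembly factors rested on single libraries. Without ATM KO 3, 7 of 14 were below 0 for complex I, 0 of 2 for II and 1 of 3 for III. For IV it was 8 of 20 and for V 2 of 3. Without vector control 1 the counts were 8 of 14, 0 of 2, 2 of 3, 9 of 20 and 2 of 3. Electron carriers and remaining subunits (Cyc1, Cycs, Ndufab1, Etfa, Etfb and Etfdh) divided evenly, with 3 below 0 and 3 above and overlapping groups in all 6. By edgeR and DESeq2 4 were below 0, since Cycs gave 0.49 by limma but -0.0056 and -0.0086 by these. Cyc1, which encodes cytochrome c1 of complex III, stood at 2182, 3067 and 1162 in ATM KO 1 to 3, against 3323, 1912 and 1884 in vector controls 1 to 3 (log2 -0.21, SE 0.41).

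The enzymes of the TCA cycle, which feeds NADH and succinate to complexes I and II, were below 0 in 13 of 13 genes, with a median of -0.28, and 0 passed any of the 3 tests. For 5 of the 13, namely Fh1, Idh3b, Idh3g, Sucla2 and Suclg2 (38.5%), all ATM KO libraries were below all controls, beside 5.48% of all tested genes. Without ATM KO 3, or without vector control 1, 10 of the 13 were below 0, with medians of -0.10 and -0.13. Citrate synthase, Cs, the most abundant, stood at 12538, 13426 and 8942 in ATM KO 1 to 3, against 18666, 11975 and 11989 in vector controls 1 to 3, and malate dehydrogenase, Mdh2, at 10495, 13113 and 6953 in ATM KO 1 to 3, against 15178, 11080.3 and 11009.9 in vector controls 1 to 3. In both vector control 1 was highest and ATM KO 3 lowest. Suclg2, a subunit of the GTP-forming succinyl-CoA ligase, chosen here for its values, had the lowest difference, at 1169.5, 1512 and 1241 in ATM KO 1 to 3, against 1798, 1946 and 1934 in vector controls 1 to 3 (log2 -0.54, SE 0.16; adjusted p = 0.241, DESeq2). The median deviation of the 13 genes was -0.07, 0.09 and -0.42 in ATM KO 1 to 3, against 0.46, -0.0023 and 0.0013 in vector controls 1 to 3, so vector control 1 and ATM KO 3 lay at the ends here as well.

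The regulators of these genes showed no common direction, with 5 of 10 tested genes below 0 by limma and 6 by edgeR and DESeq2. Gabpa, the DNA-binding subunit of GABP, stood at 3992, 3817 and 3684 in ATM KO 1 to 3, against 4541, 4746 and 4606 in vector controls 1 to 3 (log2 -0.27, SE 0.12), with every ATM KO library below every control. Gabpb1, its partner, named for that reason, stood at 1489, 1593 and 1499 in ATM KO 1 to 3, against 1432, 1279 and 1303 in vector controls 1 to 3 (log2 0.19, SE 0.14), and its ATM KO libraries were all above the controls. Neither passed limma (adjusted p = 0.999 for both). Nrf1, also named for its role, overlapped, at 1678, 2122 and 1670.1 in ATM KO 1 to 3, against 2538, 2046 and 2052 in vector controls 1 to 3 (log2 -0.28, SE 0.18). Myc and Hif1a gave 0.03 and 0.39, with overlapping groups.

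The subunits encoded in mitochondrial DNA lay on the other side of 0 from most of their nuclear-encoded partners. Of the 13 mRNAs, 7 were among the listed genes, and all 7 were tested: 5 of complex I, mt-Cytb of complex III and mt-Co1 of complex IV. All 7 were above 0, between 0.53 for mt-Nd6 and 1.09 for mt-Nd4, where the nuclear-encoded genes had a median of -0.12. Their sum was 240941, 209689 and 276255 in ATM KO 1 to 3, against 217889.7, 111979 and 97174 in vector controls 1 to 3. It leaves out the mRNAs that were not listed, so its size is not set against that of the nuclear-encoded genes. Vector control 1 lay within the ATM KO libraries and vector controls 2 and 3 lay below, so the groups overlapped in this sum. Gene by gene, the groups did not overlap for 4 of the 7 (57.1%), mt-Cytb, mt-Nd6, mt-Nd4 and mt-Nd2, with all ATM KO libraries higher, beside 5.70% of all tested genes. At an unadjusted p under 0.05 limma gave 5 of the 7 as higher, beside 2.77% of all tested genes. All 7 stayed above 0 under every setting run, with a median of 0.96 over the 6 libraries and 0.60 without vector control 3. Only mt-Nd6 was called, by DESeq2 (adjusted p = 0.0426), and none by limma or edgeR. The difference between the 2 kinds of gene was not tested. In complex I, for example, mt-Nd4 of the membrane arm stood at 10924, 9885 and 13713 in ATM KO 1 to 3, against 8626, 4658 and 3803 in vector controls 1 to 3, against the direction of Ndufv1 and Ndufs8 in the same libraries.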

How the data were processed

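RNA-seq was done on 3 ATM KO and 3 vector control 4T1 libraries; groups and replicate numbers come from the sample titles. The tools listed in the submitters' processing notes are STAR, HTSeq, DESeq2, SAMtools, cutadapt and Trim Galore, and the builds mm9 and GRCm38, with no versions or roles. The authors deposited a signal per gene, which the values show to be a read count over a factor fixed for each library: 100% come back as whole reads within 0.01 reads. The rule by which the 13405 genes were kept, the read length and the strand setting are not given in the sources used here. Genes with a mean of at least 10 were tested (12149) with limma 3.58.1 in R 4.3.3 (empirical Bayes with trend, 2-sided) on log2(value + 1), which understates changes of low genes, adjusted by Benjamini-Hochberg over all tested genes, at 0.05. DESeq2 1.42.0 and the quasi-likelihood test of edgeR 4.0.16 were applied to the whole reads for comparison. The fit was run on simulated data with larger changes than those seen here, which does not show how well small differences would be called. Lists of genes were described by counts and medians and were not tested. Coordinates and exon lengths are from GENCODE M21 (GRCm38), which holds 13249 of the gene IDs (98.8%). The genes, lists and tests were chosen with earlier results of these data known. Named are all genes whose groups do not overlap, the 3 lowest and 3 highest of each complex, the core, F1, Sdh and c subunit genes, isoform sets and, per list, the 4 most abundant or called; other genes were named after their values were seen. The values of 1 gene of complex I are not reported here.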

Additional observations from a re-analysis of the deposited data

How the results depend on the processing

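Across the alternatives (pseudocounts of 0.5 and 5, no filter or a mean of at least 50, equal totals per library, edgeR with TMM or RLE factors, DESeq2, the replicate block, leaving out each library in turn, and, chosen after seeing the data, leaving out ATM KO 2 and vector control 1 together), 0 respiratory chain genes were called. The count over all tested genes stayed at 0 except with DESeq2, which called 84; the cause was not tested. With the replicate block 0 genes were called, and 296 had an unadjusted p under 0.05 by limma, against 505 without it. The correlations between samples of the same number were -0.02, -0.58 and 0.53, so the numbers are not treated as pairs. Across the groups, ATM KO 2 correlated with vector control 1 (0.61), and ATM KO 3 with vector controls 2 and 3 (0.53 for both). Without ATM KO 2 and vector control 1 together, 2144 genes had an unadjusted p under 0.05 by limma. Of the respiratory chain genes 11 did, against 2 in the main fit, and their lowest adjusted p was 0.19. Leaving out 1 library gave between 228 genes (vector control 2) and 1778 (vector control 1). The bearing of this pattern on the calls was not tested.

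When 1 library was left out, the median ranged from -0.24 to -0.03 over the 74 genes, from -0.22 to 0.02 in complex I, -0.20 to -0.05 in complex II, -0.32 to -0.08 in complex III, -0.17 to -0.0049 in complex IV and -0.25 to -0.04 in complex V. With equal totals per library, which moved the median of all genes to 0.03, it was -0.08 over the 74 genes, of which 54 were below 0. Without ATM KO 2 and vector control 1 together it was -0.21, with 63 below 0.

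The sign of 35 of the 74 tested genes turned under some setting, for 35 when libraries were left out and for 9 with another scaling or tool. Ndufa11 stood at 0.017 by limma, -0.067 by edgeR TMM and -0.064 by DESeq2, and Ndufb4 at 0.028, -0.039 and -0.034. Among the genes named by rule, 14 turned. Leaving out 1 library gave -0.23 to 0.16 for Atp5e, -0.11 to 0.052 for Atp5j2, -0.22 to 0.14 for Atp5sl, -0.069 to 0.28 for Cox5a, -0.17 to 0.20 for Cox7a2l, -0.31 to 0.0092 for Cox7b, -0.087 to 0.11 for Ndufa4, -0.10 to 0.051 for Sdhb, -0.38 to 0.044 for Sdhc, -0.29 to 0.096 for Sdhd, -0.24 to 0.16 for Uqcrb, -0.067 to 0.14 for Uqcrh and -0.81 to 0.19 for Uqcrq. Without ATM KO 2 and vector control 1 together, Atp5sl stood at -0.086, Ndufb2 at -0.090, Uqcrb at -0.078 and Uqcrh at -0.036. Atp5sl gave -0.0090 with DESeq2, -0.0092 with edgeR RLE and -0.017 with edgeR TMM, Ndufa4 0.0030 with DESeq2, 0.0028 with edgeR RLE and 0.030 with equal totals, and Atp5j2 4.0e-05 with equal totals. The depth recovered, at 22494919 to 32341508 reads per library, leaves Atp5g2, Cox7c, Ndufb4 and Atp5g1 with the fewest reads.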
